A study of Mus musculus with 16 samples.

Results

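The change of the hyperoxia effect with time was taken as a difference of differences on all 16 arrays of the series: hyperoxia less normoxia at 24 h, minus hyperoxia less normoxia at 6 h. A positive value means that the effect of oxygen on a gene was higher at 24 h than at 6 h, and a negative value that it was lower. The cells were primary alveolar type II cells from lungs of the mouse strain C57BL/6. They were kept for 6 h or 24 h at 21% O2, called normoxia, or at 85% O2, called hyperoxia, and each of these 4 groups has 4 one-colour Agilent arrays. All cells carried the same strain background, and the labels name no other agent or allele. Nothing in the labels says that replicates came from separate animals or cultures, so p-values measure only the spread between these arrays. In all, 25401 of 34781 gene names on the array were tested, those with signal well above background in some group on 3 or more of its 4 arrays, and 17294 of these have a RefSeq symbol. A gene is called where limma's Benjamini-Hochberg adjusted p was under 0.05. Signals are log2 values less the 75th percentile of the array, effects and differences are log2 with SE, and n = 4 arrays per group throughout.

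Type II cells make surfactant and serve as progenitors of the alveolar epithelium. Excess oxygen raises reactive oxygen species in such cells, and several known programmes answer. The transcription factor p53, stabilised by DNA damage, induces Cdkn1a and other growth-arrest genes and, through p21 and the DREAM repressor complex, lowers genes of the cell cycle. NRF2 (Nfe2l2) binds antioxidant response elements and induces glutathione and quinone enzymes. ATF4 drives amino acid supply genes in the integrated stress response, XBP1 and ATF6 drive chaperones of the endoplasmic reticulum (ER), and the SREBP factors drive sterol and fatty acid synthesis.

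The slides split by time, all 6 h arrays on 1 slide and all 24 h arrays on the other, and normoxia lay in the first and hyperoxia in the second row of both. An additive shift of a slide, and a row effect that is the same on both slides, cancel in the difference; a row effect that differs between slides cannot be told apart from it. The 24 h slide was dimmer, its 75th percentile lying between 556 and 801 signal units where the 6 h arrays had 899 to 1021, and 53.6% to 69.0% of probes per array were well above background. Of the arrays left out in turn, hyperoxia 6 h replicate 3 raised the counts most: without it 2707 genes were called higher and 2262 lower in the difference. The label was checked against markers. The type II list also holds Ager and Hopx, which stand on the type I list as well, so its sum is not of type II markers alone. Genes of the type II list summed to between 221 and 307 times the 75th percentile on the 6 h arrays, with Slc34a2 not well above background on any array. At 24 h they summed to 175.5 to 186.9 times in normoxia and 148.9 to 174.8 times in hyperoxia, a narrow gap. Their mean log2 level, set to 0 at normoxia 6 h, overlapped at 24 h (-1.08 to -0.68 in normoxia, -1.28 to -0.66 in hyperoxia). Type I genes summed to between 587 and 655 times on the 6 h arrays and between 699 and 827 times on the 24 h arrays. A sum weighs the brightest genes most, and the mean log2 level of the type I list went the other way. It was 0 and 0.19 at 6 h and -0.47 and -0.25 at 24 h, normoxia first. The 14 fibroblast and smooth muscle markers summed to between 938 and 1234 times on the 6 h arrays and between 1602 and 1991 times on the 24 h arrays. RNA of these genes was thus present in all groups, and which cells it came from was not tested.

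The effect of hyperoxia was far larger at 24 h than at 6 h. The difference was called higher for 1683 genes (6.63% of genes tested) and lower for 1430 (5.63%), of which 366 and 379 changed at least 2-fold. The hyperoxia effect itself was called for 83 genes at 6 h (0.327%; 0.236% higher and 0.0905% lower) and for 7195 at 24 h (28.3%; 15.5% higher and 12.8% lower). Of the 3113 genes with a called difference, 3041 had the larger estimate at 24 h and 72 at 6 h. The median absolute effect over all genes was 0.09 at 6 h and 0.21 at 24 h, and the median difference was -0.01. Among genes called at 24 h, 41.9% had a called difference. Across the 25401 genes the effects at the 2 times, which share no array, had a Pearson correlation of 0.31 and a Spearman correlation of 0.27; genes are not independent replicates, and no p is given.

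**Figure D1:**
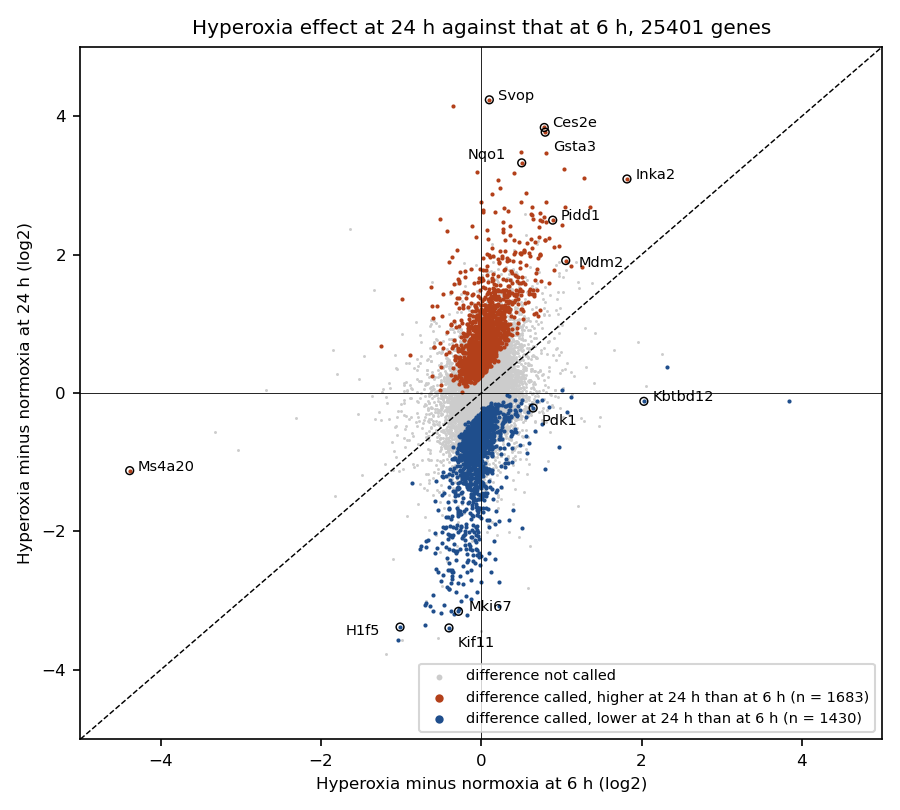
Hyperoxia less normoxia at 24 h (y axis, log2) against the same at 6 h (x axis, log2) for 25401 genes; each point is a gene, the dashed line marks equal effects, and called differences are coloured. The 1683 genes in red and 1430 in blue lie mainly along the vertical axis, with small effects at 6 h.

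How levels moved with time was read from the same fit, with the limit that time goes with slide. Among the 1683 genes with a higher difference, 887 had an estimate that rose with time in hyperoxia and fell in normoxia, 689 rose in both and 107 fell in both. Among the 1430 with a lower difference, 711 fell in both oxygen groups, 559 fell in hyperoxia and rose in normoxia, and 160 rose in both. A lower difference therefore came in several forms, and the gene groups below differ in which one they show.

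Genes of mitosis fell the most. The difference was lower for 44 of 45 tested genes of the mitosis and G2/M list and higher for 0, with a median of -1.99 against -0.01 over all genes. The list's median hyperoxia effect was -0.32 at 6 h and -2.26 at 24 h. At 6 h 2 of the 45 were called lower, and 24 had an unadjusted limma p under 0.05. The mean level of the list, set to 0 at normoxia 6 h, was -0.16 to 0.21 on those arrays and -0.45 to -0.24 at hyperoxia 6 h, without overlap. It was -0.64 to -0.23 at normoxia 24 h and -2.92 to -2.50 at hyperoxia 24 h. Fewer dividing cells and less RNA per cell cannot be told apart in such bulk RNA.

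**Figure D2:**
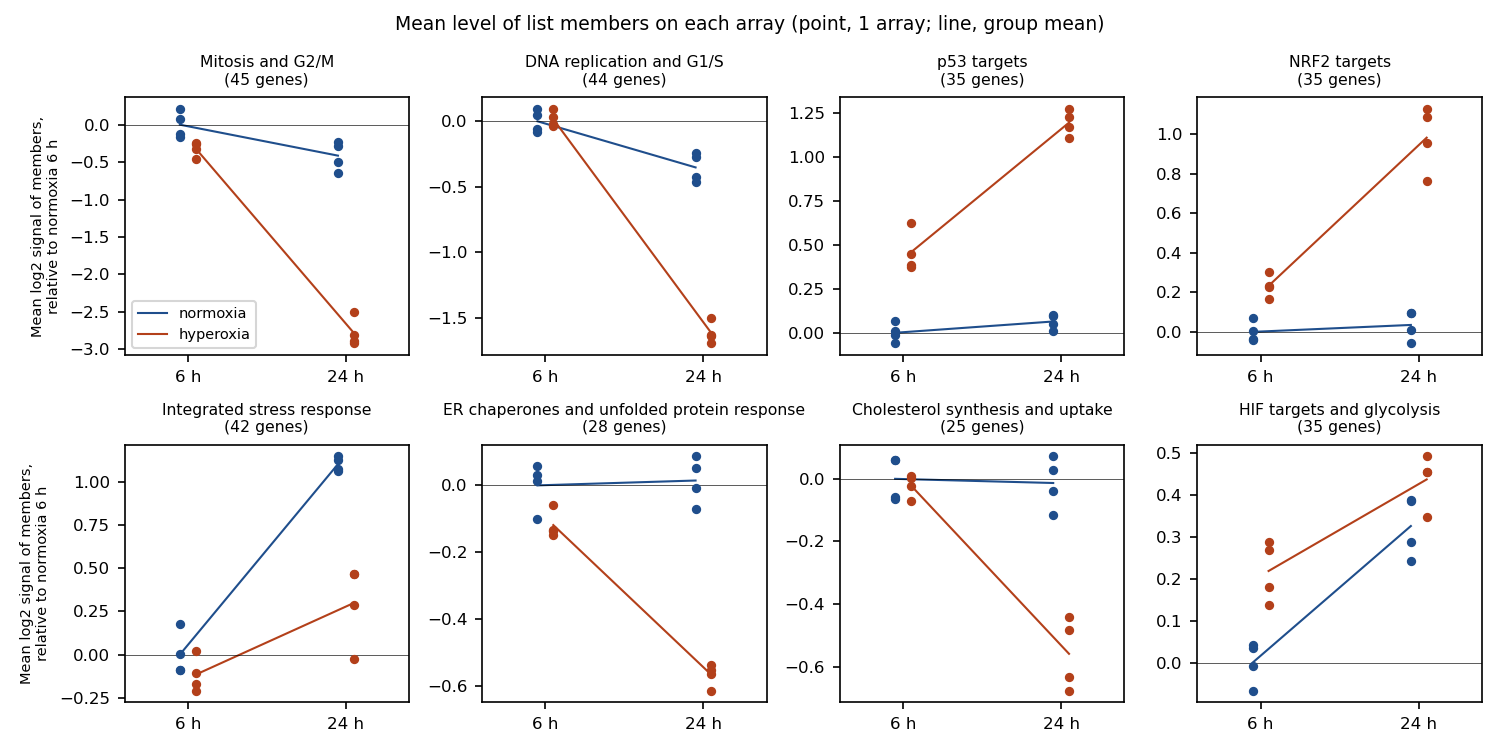
Mean log2 signal of the members of 8 gene lists on each array (y axis, relative to the mean of the normoxia 6 h arrays) at 6 h and 24 h (x axis); points are arrays and lines join group means. In the mitosis panel the 4 hyperoxia 24 h arrays lie at or below -2.50, under all other arrays.

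Mki67, which encodes the proliferation antigen Ki-67, showed the pattern on every array. Its log2 signal was 3.94, 4.41, 4.00 and 4.16 at normoxia 6 h and 3.66, 3.95, 3.88 and 3.88 at hyperoxia 6 h. At 24 h it was 3.97, 3.66, 3.43 and 4.12 in normoxia and 1.02, 0.51, 0.37 and 0.66 in hyperoxia. The hyperoxia 24 h arrays lay below all 12 others, and the 3 other groups overlapped. The effect went from -0.28 ± 0.16 to -3.15 ± 0.16, a difference of -2.87 ± 0.23 (7.31-fold, limma adjusted p 2.11e-06). Kif11, the kinesin that separates spindle poles, had the largest fall of the list (-2.99 ± 0.33). The checkpoint kinase Ttk (-2.85; well above background on 2 of 4 hyperoxia 24 h arrays), the kinetochore genes Ska1 (-2.85), Nuf2 (-2.75) and Ndc80 (-2.56) and cyclin A2, Ccna2 (-2.75), also fell. Cyclin B1 (Ccnb1, -2.43), its kinase Cdk1 (-2.15) and the mitotic kinase Plk1 (-2.55) fell by similar amounts. Cenpf, a kinetochore protein, was the 1 member not called (-1.78 ± 0.77, adjusted p 0.163) and was well above background on 0 of 4 hyperoxia 24 h arrays.

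A few mitotic genes were already called lower at 6 h. Aspm, a spindle pole protein, had log2 signals of 0.58, 0.97, 0.70 and 0.89 at normoxia 6 h and -0.07, 0.11, 0.23 and 0.07 at hyperoxia 6 h. At 24 h they were 0.39, 0.12, 0.12 and 0.47 in normoxia and -2.55, -2.85, -2.89 and -2.87 in hyperoxia. The 6 h groups did not overlap, and the hyperoxia 24 h arrays lay below all others. The effect was -0.70 ± 0.11 at 6 h (adjusted p 0.0135) and -3.06 ± 0.11 at 24 h, a difference of -2.37 ± 0.16 (adjusted p 7.76e-07). Depdc1b (-0.70, then -3.35) and the spindle checkpoint gene Bub1b (-0.57, then -2.02) were likewise called lower at both times with a lower difference.

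The start regions of mitotic genes often hold the cell cycle homology region (CHR), the element through which the DREAM complex is known to act; 3 are shown because these genes are among those that fell. The letters searched were TTTGAA, on both strands, in RefSeq windows of 250 bases before to 50 after a start (GRCm38.p6). They occurred in 29 of 38 windows of 36 matched genes of the list (76.3%), against 17.9% of all 32851 windows in the table. The CCAAT box, letters CCAAT, occurred in 71.1% of the list's windows and 37.4% of all. Pieces of 120 bases before the start follow, capitals marking the CHR letters on either strand. Cdk1 is at chr10:69352913-69353032 (minus strand), Cdc20, the activator of the anaphase-promoting complex, at chr4:118437344-118437463 (minus strand) and Kif11 at chr19:37376262-37376381 (plus strand).
Cdk1: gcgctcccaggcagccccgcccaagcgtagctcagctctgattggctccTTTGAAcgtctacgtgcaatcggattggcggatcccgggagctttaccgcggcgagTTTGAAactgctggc
Cdc20: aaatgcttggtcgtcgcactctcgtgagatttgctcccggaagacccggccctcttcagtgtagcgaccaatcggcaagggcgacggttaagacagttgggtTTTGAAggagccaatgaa
Kif11: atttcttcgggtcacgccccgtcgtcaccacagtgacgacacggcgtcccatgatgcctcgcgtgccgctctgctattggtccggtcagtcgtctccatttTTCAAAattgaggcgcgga
The Kif11 match reads on the opposite strand. A match is a description of the letters, not of binding.

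Genes of DNA replication had effects near 0 at 6 h and fell at 24 h. The difference was lower for 39 of 44 tested members and higher for 0, with a median of -1.29. The median effect was -0.01 at 6 h and -1.28 at 24 h, and 0 members were called at 6 h by limma in either direction, with 2 at an unadjusted p under 0.05. Uhrf1, which recruits the maintenance DNA methyltransferase, had the smallest adjusted p of all genes with a symbol. Its signal was 3.08, 3.14, 3.100 and 3.15 at normoxia 6 h, 2.91, 2.97, 2.93 and 3.104 at hyperoxia 6 h, 2.76, 2.41, 2.66 and 2.68 at normoxia 24 h and 0.50, 0.43, 0.39 and 0.19 at hyperoxia 24 h. The last 4 arrays lay below all 12 others, and the 6 h groups overlapped. The difference was -2.12 ± 0.12 (4.33-fold, limma adjusted p 4.12e-07). The licensing factors Cdc6 (-2.47 ± 0.16) and Mcm10 (-2.45 ± 0.17) also fell. Cyclin E2, Ccne2, was called lower too, but was well above background on 1 of 4 hyperoxia 24 h arrays, and its difference ran from -3.71 to -1.06 over the alternatives. The 5 members not called were Pola2 (-0.48), Tyms (-0.36), Ung (-0.24), the histone mRNA binder Slbp (-0.17) and Gins3 (0.03). The E2F letters TTTNGCGC occurred in 12 of 41 windows of the list (29.3%) and in 1.38% of all windows.

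Homologous recombination and Fanconi genes, which repair breaks and crosslinks in replicating cells, followed the replication genes. Here 22 of 25 were lower in the difference and 0 higher, with a median of -1.18, from -0.02 at 6 h to -1.22 at 24 h. The nuclease gene Exo1 had signals of 1.55, 1.93, 1.67 and 1.78 at normoxia 6 h and 1.64, 1.57, 1.92 and 1.79 at hyperoxia 6 h, which overlapped. At 24 h its signals were 1.46, 1.13, 1.07 and 1.46 in normoxia and -1.24, -1.39, -1.53 and -1.62 in hyperoxia, which did not. Its difference was -2.72 ± 0.17 (adjusted p 5.52e-07). Rad51ap1 (-2.40) and Fancd2 (-2.34) were close behind, although the difference of Fancd2 ran from -2.49 to -0.92 over the alternatives. Brca1 (-2.45 ± 0.56) was well above background on 1 of 4 normoxia 24 h arrays and on 0 of 4 in hyperoxia, so that its size at 24 h is not measured on both sides. Brip1 (-0.71), Rad50 (-0.20) and Nbn (-0.11) were not called.

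The 12 largest falls among genes with a symbol that were measured in every group also included 5 others of the cell cycle, Aunip, Fbxo5, E2f8, Clspn and the kinesin gene Kif2c (-2.68). Aunip, a partner of the kinase Aurora A, had the largest (-3.03 ± 0.29, adjusted p 8.52e-06). Fbxo5, the inhibitor Emi1 of the anaphase-promoting complex (-2.84), the repressor E2f8 (-2.83) and the checkpoint mediator Clspn (-2.71) followed. E2f8, Fbxo5, Cenpi (-2.23), Pimreg (-2.45) and the Cdk1-inhibiting kinase Pkmyt1 (-1.68) were among the 10 smallest adjusted p. The condensin subunit Ncapg (-2.53) was not well above background on any hyperoxia 24 h array, and at 24 h it was at least 4.84-fold lower in hyperoxia, taken against the lowest signal well above background on each array. Tm6sf1, a membrane protein, differed in form. It was well above background on 0 of 4 and 1 of 4 arrays at 6 h and on 4 of 4 and 3 of 4 at 24 h, normoxia first. Its difference was called lower, but its effect at 6 h is not measured on either side, so no size is given.

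**Figure D3:**
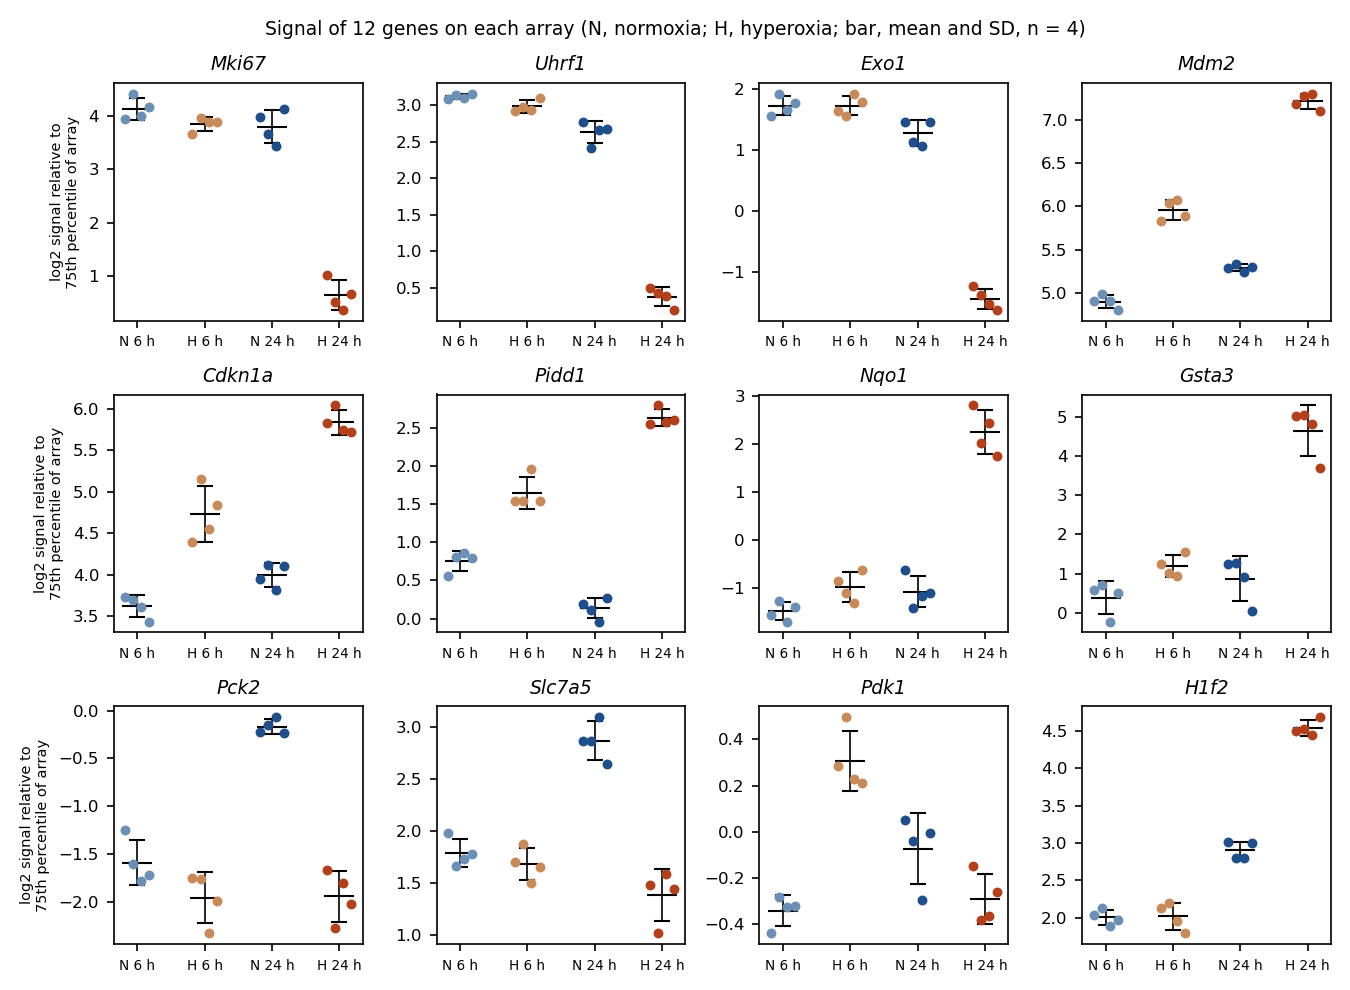
Log2 signal of 12 genes on each array (y axis, relative to the array's 75th percentile) in the 4 groups (x axis); points are arrays, bars the mean and SD. Mki67, Uhrf1 and Exo1 are lowest in the hyperoxia 24 h group, Mdm2, Cdkn1a and Pidd1 are raised at both times, and Pdk1 is highest at hyperoxia 6 h.

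Targets of p53 were raised at both times, and more of them were called at 6 h than of any other list. Of 35 tested, 14 were called higher at 6 h and 28 at 24 h, and the difference was higher for 22 and lower for 0. The median effect was 0.46 at 6 h and 1.22 at 24 h, and the median difference was 0.71. Mdm2, the ubiquitin ligase that degrades p53 and is itself induced by it, had signals of 4.91, 4.99, 4.91 and 4.81 at normoxia 6 h and 5.83, 6.04, 6.07 and 5.89 at hyperoxia 6 h. At 24 h they were 5.29, 5.34, 5.25 and 5.30 in normoxia and 7.18, 7.27, 7.29 and 7.10 in hyperoxia. No 2 groups overlapped, and the hyperoxia arrays were the higher ones at both times. The effect was 1.054 ± 0.07 at 6 h and 1.91 ± 0.07 at 24 h, a difference of 0.86 ± 0.10 (adjusted p 3.80e-05).

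Cdkn1a, which encodes the cyclin-dependent kinase inhibitor p21, was at 3.73, 3.70, 3.61 and 3.43 at normoxia 6 h and 4.39, 5.15, 4.55 and 4.84 at hyperoxia 6 h. It was at 3.94, 4.12, 3.82 and 4.10 at normoxia 24 h and 5.83, 6.04, 5.74 and 5.72 at hyperoxia 24 h. Hyperoxia lay above normoxia at both times without overlap. Its effect was 1.11 ± 0.14 at 6 h and 1.84 ± 0.14 at 24 h, and the difference was 0.72 ± 0.20 (adjusted p 0.0278). That call was lost with quantile normalization, with the authors' deposited table and without normoxia 6 h replicate 1, normoxia 6 h replicate 2, normoxia 24 h replicate 1, normoxia 24 h replicate 3 or hyperoxia 24 h replicate 2, with adjusted p up to 0.0661. Pidd1, a death-domain protein, grew most within the list: 0.56, 0.81, 0.87 and 0.80 and 1.54, 1.54, 1.97 and 1.55 at 6 h in normoxia and hyperoxia, 0.20, 0.11, -0.04 and 0.27 and 2.55, 2.79, 2.57 and 2.61 at 24 h. From 6 h to 24 h its level was lower in normoxia and higher in hyperoxia, without overlap of any groups, and the difference was 1.61 ± 0.15 (adjusted p 7.36e-06).

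Genes of cell death and of arrest on the p53 list both had a higher difference. The death receptor Fas (1.39 ± 0.29), the BH3-only gene Pmaip1 (1.32 ± 0.36), Bax (1.15 ± 0.29), Perp (1.38 ± 0.27) and Apaf1 (0.81) were called higher in the difference, and none of these 5 was called at 6 h. Trp53inp1 (0.80 at 6 h, 2.22 at 24 h), Ddit4l (1.01, 2.44) and the translesion polymerase Polk (0.97, 2.13) were called higher at both times with a higher difference. The cyclin G1 gene Ccng1 (0.97), Phlda3, an inhibitor of Akt (0.41), and the RNA-binding gene Zmat3 (0.55) followed. Dcxr, a carbonyl reductase on the same list, had a difference of 1.51 ± 0.18.

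A smaller set of p53 targets had similar estimates at both times. Gdf15, a stress-induced cytokine, had an effect of 1.22 ± 0.14 at 6 h (adjusted p 0.000745) and 1.52 ± 0.14 at 24 h, and its difference of 0.30 ± 0.20 was not called (adjusted p 0.371). Aen, a nuclease, was at 0.47 and 0.53, with a difference of 0.06 ± 0.08. Cdkn2b (-0.05 ± 0.20), Rrm2b (-0.05 ± 0.17), Sesn1 (-0.03 ± 0.16) and Sesn2 (0.03 ± 0.09) had differences near 0. A p that misses the threshold does not show that effects were equal. Eda2r, a receptor of the TNF family, was at 1.18 at 6 h and 1.89 at 24 h, and its difference of 0.71 ± 0.30, as large as the median of the list, missed the threshold (adjusted p 0.146; 0.0487 with the replicate block within slide).

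Several genes outside the list were called at 6 h and grew. Inka2, an inhibitor of the kinase Pak4, had the effects 1.82 and 3.09 and a difference of 1.27 ± 0.22 (adjusted p 0.00176); it was chosen after its values were seen. Rprm, the growth-arrest gene reprimo (0.75, 2.48), the transcription factor Ascl2 (0.73, 2.39), Foxo3 (0.69, 1.73) and the excision repair nuclease Ercc5 (0.61, 1.51) did the same. In all, 52 of the 83 genes called at 6 h had a called difference with the same sign and a larger effect at 24 h. A further 23 had no called difference.

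The p53 half-site, a palindromic 10-base motif searched without spacer or mismatch, was found in 12 of 34 windows of the list (35.3%) and in 8.36% of all windows. The piece before the start of Mdm2, at chr10:117710880-117710999 (minus strand, GRCm38.p6, RefSeq), is shown because Mdm2 was called at both times and in the difference; capitals mark the half-site.
Mdm2: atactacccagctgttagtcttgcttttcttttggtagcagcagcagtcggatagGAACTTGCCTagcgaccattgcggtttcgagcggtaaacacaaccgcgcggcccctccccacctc
The RefSeq table matched 26 of the 35 genes. Among all genes whose difference was higher, the share of windows with a half-site was 8.07%, near the 7.37% of all tested genes.

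NRF2 targets had a small shift at 6 h and a larger one at 24 h. The mean level of the list, set to 0 at normoxia 6 h, was -0.04 to 0.07 on those arrays and 0.17 to 0.30 at hyperoxia 6 h, without overlap, and -0.06 to 0.10 at normoxia 24 h and 0.77 to 1.13 at hyperoxia 24 h. Of 35 tested, 0 were called at 6 h by limma in either direction (8 at an unadjusted p under 0.05) and 26 were called higher and 1 (Slc7a11) lower at 24 h. The difference was higher for 18 and lower for 0, with a median of 0.60 (0.21 at 6 h, 0.74 at 24 h). Nqo1, the quinone reductase that is a standard NRF2 target, had signals of -1.56, -1.27, -1.70 and -1.39 at normoxia 6 h and -0.86, -1.11, -1.32 and -0.62 at hyperoxia 6 h. The 24 h signals were -0.63, -1.41, -1.16 and -1.11 in normoxia and 2.80, 2.01, 2.43 and 1.76 in hyperoxia. Hyperoxia 24 h was above all other arrays, and the effect went from 0.50 ± 0.22 to 3.33 ± 0.22. The difference was 2.82 ± 0.31 (7.07-fold, adjusted p 3.54e-05).

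The glutathione S-transferases varied among themselves. Gsta3, with signals of 0.58, 0.70, -0.22 and 0.51 and 1.25, 1.02, 0.93 and 1.56 in normoxia and hyperoxia at 6 h and 1.24, 1.27, 0.92 and 0.05 and 5.01, 5.05, 4.82 and 3.68 at 24 h, had a difference of 2.97 ± 0.46 (adjusted p 0.000709). Its hyperoxia 24 h replicate 4 was lower than the 3 others, yet above all arrays of other groups. Gsta4 (2.77 ± 0.32) and Gstm1 (1.23) rose, while Gstp1 (0.10 ± 0.16), Gstm2 (0.16 ± 0.17) and Gsta2 (1.06 ± 0.63) were not called. These paralogs are alike in sequence, and whether probes cross-hybridise was not tested. Of the other branches, the glutathione synthesis subunit Gclm rose (0.93) and Gclc was not called (0.27). Thioredoxin reductase Txnrd1 (0.60), sulfiredoxin Srxn1 (0.66), peroxiredoxin Prdx1 (0.78) and the reductase Cbr3 (1.28) rose. Heme oxygenase Hmox1 was scattered within groups and was not called (1.27 ± 1.28, adjusted p 0.594). Slc7a11, the cystine transporter that ATF4 also drives, was at -0.77 ± 0.28 (adjusted p 0.0928).

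The antioxidant response element core, letters TGACNNNGC on both strands, occurred in 12 of 38 windows of the NRF2 list (31.6%, 30 of 35 genes matched) and in 12.4% of all windows. Gsta3, at chr1:21240409-21240528 (plus strand), and Gclm, at chr3:122245368-122245487 (plus strand), are shown as members whose effect rose with time. Capitals mark the core, which in Gclm reads on the opposite strand.
Gsta3: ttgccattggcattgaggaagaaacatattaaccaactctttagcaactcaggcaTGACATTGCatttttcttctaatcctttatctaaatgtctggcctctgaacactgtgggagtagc
Gclm: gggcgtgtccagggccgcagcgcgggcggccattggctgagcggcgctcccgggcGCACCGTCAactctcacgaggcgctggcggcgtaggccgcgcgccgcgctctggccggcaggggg
Among all genes whose difference was higher, 14.5% of windows held the core, near the 13.8% of all tested genes.

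Some xenobiotic enzymes and few other antioxidants rose. On the list of AhR targets and xenobiotic enzymes 4 of 17 were higher (Ces2e, Nqo1, Adh1 and Ahrr) and 0 lower. The share higher was 23.5%, against 6.63% over all genes. Ces2e, a carboxylesterase, had the largest rise of the named genes measured in every group. Its signals were -4.38, -4.19, -5.10 and -4.84 and -3.93, -3.74, -3.87 and -3.83 in normoxia and hyperoxia at 6 h and -4.53, -3.48, -4.54 and -5.005 and -0.83, 0.60, -0.65 and -1.33 at 24 h. The hyperoxia 24 h arrays were above all others, although they spread widely, and the difference was 3.05 ± 0.52 (8.29-fold, adjusted p 0.00144). The alcohol dehydrogenase Adh1 (1.83 ± 0.47) and Ahrr, the repressor of the aryl hydrocarbon receptor (1.57 ± 0.28), rose from effects near 0. Over the alternatives their differences ran from 0.87 to 2.11 and from 0.40 to 1.69. Of 27 other antioxidant enzymes 4 were higher (14.8%, against 6.63% over all genes) and 0 lower, and the median difference was -0.03. The 4 were Txnip, the thioredoxin inhibitor (1.52 ± 0.29), Gss (0.46), Gpx1 (0.46) and Msrb1 (0.34; lost in 6 of 11 other settings and in 13 of 16 fits without 1 array).

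The remaining largest rises belong to no single list. Robo3, an axon guidance receptor, had signals of -4.005, -4.54, -4.17 and -4.07 at normoxia 6 h, -3.76, -3.10, -3.45 and -3.25 at hyperoxia 6 h, -4.17, -4.16, -4.30 and -4.37 at normoxia 24 h and -0.90, -0.30, -0.77 and -1.16 at hyperoxia 24 h. All hyperoxia 24 h arrays were above the rest, and the difference was 2.66 ± 0.25 (6.31-fold, adjusted p 7.82e-06). Alox5, which encodes 5-lipoxygenase (2.73 ± 0.32), the late cornified envelope genes Lce1g (2.73 ± 0.27) and Lce1i (2.39 ± 0.47), and the actin bundler Espn (2.20 ± 0.23) followed, with Insyn2a (2.33), Hoatz (2.30) and 1700007K13Rik (2.26). Svop, a synaptic vesicle protein, was well above background on 4 of 4 hyperoxia 24 h arrays and 0 of 4 normoxia 24 h arrays. At 24 h it was at least 9.10-fold higher in hyperoxia, while at 6 h it was measured on 1 of 4 and 2 of 4 arrays. Rimbp3 and Hoxc9 were likewise well above background on 0 of 4 normoxia 24 h arrays, and were at least 3.75-fold and at least 2.05-fold higher in hyperoxia at 24 h.

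Genes of the integrated stress response took a different form. The difference was lower for 26 of 42 tested genes and higher for 0, with a median of -0.67 (effect -0.10 at 6 h and -0.74 at 24 h). The mean level of the list, set to 0 at normoxia 6 h, was 1.06 to 1.15 on the normoxia 24 h arrays and -0.02 to 0.47 at hyperoxia 24 h. The levels thus rose with time in normoxia and less so in hyperoxia, whereas the levels of cell cycle genes fell in hyperoxia. A slide shift that both oxygen groups share cancels in the difference, which is the change with time in hyperoxia less that in normoxia.

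Pck2, the mitochondrial phosphoenolpyruvate carboxykinase, had signals of -1.25, -1.61, -1.79 and -1.72 and -1.75, -1.76, -2.33 and -1.99 in normoxia and hyperoxia at 6 h. At 24 h they were -0.23, -0.15, -0.07 and -0.24 in normoxia and -1.66, -2.28, -1.81 and -2.03 in hyperoxia. The normoxia 24 h arrays were above all 12 others, and the hyperoxia arrays of both times overlapped. The difference was -1.41 ± 0.22 (2.66-fold, adjusted p 0.000672), made of a change with time of 1.42 in normoxia and 0.01 in hyperoxia. Slc7a5, the large neutral amino acid transporter, was at 1.98, 1.66, 1.73 and 1.77 at normoxia 6 h and 1.71, 1.88, 1.503 and 1.65 at hyperoxia 6 h. It was at 2.87, 2.87, 3.098 and 2.65 at normoxia 24 h and 1.48, 1.02, 1.59 and 1.44 at hyperoxia 24 h, again with normoxia 24 h above the rest (-1.39 ± 0.18, adjusted p 0.000156).

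The lower difference covered several steps of amino acid supply. In serine and one-carbon metabolism, Phgdh (-0.88), Psat1 (-1.03), Psph (-0.83), Shmt2 (-1.30) and Mthfd2 (-1.07) were lower. In proline synthesis, Pycr1 (-1.36) and Aldh18a1 (-1.17) were lower, as were asparagine synthetase Asns (-0.71), the cysteine enzyme Cth (-1.35) and the hormone gene Fgf21 (-1.44). The aminoacyl-tRNA synthetases Wars (-0.81), Eprs (-0.71), Aars (-0.56), Sars (-0.54), Cars (-0.46), Nars (-0.41) and Mars1 (-0.37) were lower in the difference, while Gars (-0.33) was not called. Of the regulators, Atf4 (-0.25 ± 0.13, adjusted p 0.255), Ddit3 (-0.09 ± 0.31), Atf3 (0.07 ± 0.16) and Atf5 (-0.08 ± 0.16) were not called, and Trib3 was lower (-1.26 ± 0.35), a call that was lost in 6 of 16 fits without 1 array.

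The composite element CARE, to which ATF4 dimers bind, was searched with the letters TGATGNAA on both strands. It occurred in 13 of 41 windows of the list (31.7%, 35 of 42 genes matched) and in 3.97% of all windows. Asns, at chr6:7693210-7693329 (minus strand), and Pck2, at chr14:55540108-55540227 (plus strand), are shown, with capitals for these letters; the Pck2 match reads on the opposite strand.
Asns: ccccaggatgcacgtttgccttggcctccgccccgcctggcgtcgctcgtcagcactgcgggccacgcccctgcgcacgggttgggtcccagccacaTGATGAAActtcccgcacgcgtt
Pck2: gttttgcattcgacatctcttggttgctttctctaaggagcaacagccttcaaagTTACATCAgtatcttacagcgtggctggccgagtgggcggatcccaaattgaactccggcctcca
Both genes were lower in the difference.

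ER chaperones fell with time in hyperoxia. The difference was lower for 16 of 28 and higher for 0, with a median of -0.46 (-0.12 at 6 h, -0.61 at 24 h). The list's mean level was -0.07 to 0.09 at normoxia 24 h and -0.61 to -0.54 at hyperoxia 24 h. Hspa5, the chaperone BiP (-0.63 ± 0.12, adjusted p 0.00231), Hyou1 (-0.91), Pdia4 (-0.72), Herpud1 (-0.72) and the regulator Xbp1 (-0.59) were lower, the calls of Hyou1, Herpud1 and Pdia4 being lost in 13, 7 and 2 of 16 fits without 1 array. Derl3, part of the retrotranslocation machinery, was at -2.59, -2.17, -2.51 and -2.62 and -3.16, -2.38, -2.70 and -2.23 at 6 h in normoxia and hyperoxia, and at -3.47, -2.92, -3.61 and -3.31 and -4.78, -4.43, -4.84 and -4.79 at 24 h. The 24 h groups did not overlap, and the difference was -1.24 ± 0.27 (adjusted p 0.00805). Calr (-0.41), Canx (0.00) and Pdia3 (0.01) were not called.

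The ER stress element ERSE, a CCAAT box followed after 9 bases by CCACG, was searched on both strands. It was found in 10 of 25 windows of the ER list (40.0%) and in 39 of all 32851 windows (0.119%). Hspa5, at chr2:34771970-34772089 (plus strand), and Derl3, at chr10:75893187-75893306 (plus strand), are shown with the element in capitals, on the opposite strand in Derl3.
Hspa5: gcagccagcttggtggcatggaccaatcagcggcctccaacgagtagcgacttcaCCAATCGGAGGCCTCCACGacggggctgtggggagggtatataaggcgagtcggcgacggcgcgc
Derl3: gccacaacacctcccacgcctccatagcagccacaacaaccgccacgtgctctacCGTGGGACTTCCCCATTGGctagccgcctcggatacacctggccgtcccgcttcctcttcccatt
The RefSeq table held windows for 24 of the 28 genes of the list, with or without the element.

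Sterol and fatty acid synthesis genes were lower at 24 h. Of 25 cholesterol genes 11 were lower in the difference and 0 higher, with a median of -0.52 (-0.02 at 6 h, -0.57 at 24 h); without hyperoxia 6 h replicate 3 the count was 17. Insig1, a sensor gene that SREBP2 itself induces, was at 0.50, 0.34, 0.13 and 0.37 at normoxia 6 h and 0.19, 0.54, 0.24 and 0.74 at hyperoxia 6 h. The 24 h signals were 0.52, 0.34, 0.21 and 0.52 in normoxia and -0.54, -0.63, -0.997 and -0.64 in hyperoxia. Hyperoxia 24 h lay below all other arrays, which overlapped, and the difference was -1.19 ± 0.19 (adjusted p 0.000862). Fdps (-0.91), Idi1 (-0.81), Fdft1 (-0.67) and Sqle (-0.54) of the pathway were lower, while the regulator Srebf2 (-0.17 ± 0.12) was not called. Of 26 fatty acid and phospholipid genes 7 were lower (26.9%, against 5.63% over all genes) and 0 higher. Among the 7 were Fasn (-0.84), Acaca (-0.68), Elovl6 (-0.84) and the regulator Srebf1 (-0.66).

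**Figure D4:**
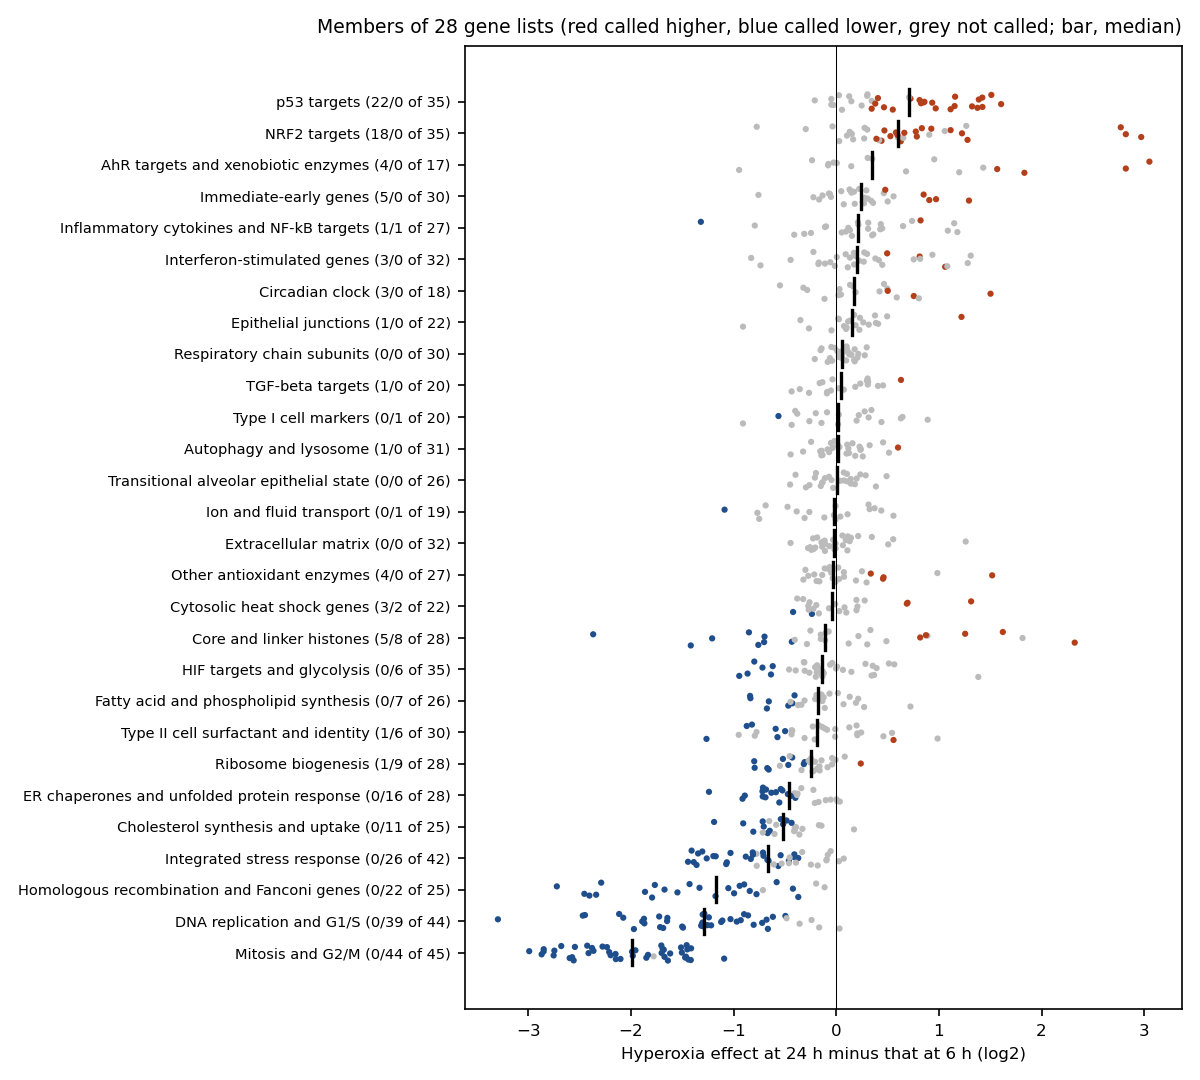
Difference of the hyperoxia effects, 24 h less 6 h (x axis, log2), for each tested member of 28 gene lists (rows); red points were called higher, blue lower and grey not called, black bars are medians, and row labels give the counts higher/lower of those tested. Mitosis, replication and repair genes lie lowest (medians -1.99, -1.29 and -1.18) and p53 and NRF2 targets highest (0.71 and 0.60).

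A small set of genes ran the other way, with an effect at 6 h that was smaller at 24 h. Of the 83 genes called at 6 h, 8 had a called difference and a smaller estimate at 24 h; 3 of these have a RefSeq symbol, and the others are known only by probe, clone or position. Pdk1, the kinase that keeps pyruvate out of mitochondria and a target of the hypoxia-inducible factor HIF-1, was at -0.44, -0.28, -0.33 and -0.32 at normoxia 6 h and 0.29, 0.50, 0.23 and 0.21 at hyperoxia 6 h. At 24 h it was at 0.05, -0.04, -0.29 and -0.00 in normoxia and -0.15, -0.38, -0.36 and -0.26 in hyperoxia. The 6 h groups did not overlap and hyperoxia was higher; at 24 h they overlapped. The effect was 0.65 ± 0.09 (adjusted p 0.0029) and then -0.22 ± 0.09, a difference of -0.86 ± 0.12 (adjusted p 0.000375).

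Kbtbd12 and Ms4a20 were near background. Kbtbd12 was well above background on 4 of 4 hyperoxia 6 h arrays and on 1, 1 and 0 of 4 in normoxia 6 h, normoxia 24 h and hyperoxia 24 h. Its effect was 2.03 ± 0.37 at 6 h and its difference -2.15 ± 0.52 (adjusted p 0.0134), with the effect at 24 h near background on both sides. Ms4a20 was well above background on 4 of 4 normoxia 6 h arrays and on 0 of 4 hyperoxia 6 h arrays, at least 4.48-fold lower in hyperoxia. At 24 h it was well above background on 1 of 4 and 0 of 4 arrays, so its difference of 3.27 ± 0.81 (adjusted p 0.0162) compares a measured effect with levels near background.

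The list of HIF targets and glycolysis had 6 of 35 lower and 0 higher in the difference, with a median of -0.14 (0.17 at 6 h, 0.01 at 24 h). Beside Pdk1 these were the phosphofructokinases Pfkl (-0.94) and Pfkp (-0.62), the prolyl hydroxylases of collagen P4ha1 (-0.80) and P4ha2 (-0.72), and the lactate exporter Slc16a3 (-0.64). The share of 17.1% stands beside 5.63% over all genes. Most members were not called, among them Vegfa (-0.20 ± 0.18), Slc2a1 (-0.06 ± 0.18), Bnip3 (-0.46 ± 0.27) and Car9 (0.15 ± 0.22).

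In 90 genes the difference was called although neither effect was, and in all 90 the estimates had opposite signs. Opposite signs follow largely from this selection. The difference has the larger SE (median 0.17, against 0.12 for the effect at 1 time), so effects of the same sign can hardly meet it. Ak4, a mitochondrial adenylate kinase, went from 0.48 to -0.24, a difference of -0.73 ± 0.16 (adjusted p 0.00786). Its signals were 2.05, 1.86, 1.56 and 1.97 and 2.66, 2.35, 2.17 and 2.19 at 6 h in normoxia and hyperoxia, and 2.31, 2.16, 2.29 and 2.24 and 2.01, 2.02, 2.07 and 1.91 at 24 h, so that the hyperoxia arrays were the higher ones at 6 h and the lower ones at 24 h. Rbm46, an RNA-binding protein of germ cells (-1.25, then 0.68), had the largest difference among those with a symbol. Cidea, a lipid droplet protein (0.97, then -0.77), had the largest fall. These were chosen after their values were seen.

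Surfactant and type II identity genes were split. Of 30 tested, 1 was higher in the difference and 6 lower, with a median of -0.19; the lower count stood beside 5.63% over all genes, and dropped to 3 without normoxia 6 h replicate 1, hyperoxia 6 h replicate 2, normoxia 24 h replicate 2 or normoxia 24 h replicate 4. Sftpb, surfactant protein B, was at 1.14, 1.76, 0.84 and 1.12 at normoxia 6 h and 1.23, 1.92, 1.83 and 1.11 at hyperoxia 6 h, which overlapped. At 24 h it was at -0.46, -0.03, -0.32 and -0.17 in normoxia and -1.86, -0.76, -1.04 and -1.13 in hyperoxia, which did not. Its difference was -1.26 ± 0.35 (adjusted p 0.0298), a call lost without normoxia 6 h replicate 1, 3 or 4, hyperoxia 6 h replicate 2 or normoxia 24 h replicate 2 or 4 (adjusted p up to 0.0643). Its level fell with time in both oxygen groups (-1.46 and -2.72). Abca3, the lipid transporter of lamellar bodies, was the member that rose (0.56 ± 0.14). The lamellar body gene Lamp3 (-0.87), Muc1 (-0.82), Dram1 (-0.59), Fabp5 (-0.57) and the transcription factor Etv5 (-0.50) fell, the calls of Muc1 and Dram1 being lost in most fits that left out 1 array.

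Sftpc, the most specific type II marker, had a difference of -0.01 ± 0.61, with signals between 3.48 and 4.96 on the 6 h arrays and between 0.62 and 2.84 on the 24 h arrays. Both hyperoxia groups overlapped with the normoxia group of their time. Of 20 type I cell genes 1 was lower (Emp2, -0.56), a share of 5% that is near the 5.63% over all genes. Of 26 genes of the transitional alveolar state 0 were called by limma (2 at an unadjusted p under 0.05). Summed fibroblast and smooth muscle signal at 24 h was 1744 to 1991 in normoxia and 1602 to 1703 in hyperoxia. Of its 14 genes 1 was called, Des (-1.50), a share of 7.14% lower that is near the 5.63% over all genes. Macrophage markers summed to between 29.0 and 40.2 on the 6 h arrays and between 58.0 and 79.6 on the 24 h arrays. At 24 h hyperoxia (71.5 to 79.6) and normoxia (58.0 to 73.9) overlapped. The mean log2 level of this list did not rise with the sum. It was 0 and 0.17 at 6 h and -0.23 and -0.03 at 24 h, normoxia first. Cd68 (0.78) was the 1 of 10 called, a share of 10% higher against 6.63% over all genes. Club cell markers summed to between 27.2 and 55.0 on the 6 h arrays and between 7.18 and 9.24 on the 24 h arrays, with 0 of 6 genes called by limma (1 at an unadjusted p under 0.05). The part of these cells in the results was not tested.

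Histone genes moved both ways. Of 28 tested 5 were higher in the difference (17.9%, against 6.63% over all genes) and 8 lower (28.6%, against 5.63%). The linker histone H1f2 was at 2.03, 2.13, 1.89 and 1.97 and 2.13, 2.19, 1.96 and 1.79 at 6 h in normoxia and hyperoxia, and at 3.01, 2.79, 2.80 and 2.99 and 4.50, 4.53, 4.45 and 4.69 at 24 h. The hyperoxia 24 h arrays were the highest, and the difference was 1.62 ± 0.13 (adjusted p 2.49e-06). H1f5, another linker histone, went down: 2.24, 2.41, 2.50 and 2.28 and 1.28, 1.39, 1.46 and 1.23 at 6 h, 2.21, 1.68, 1.54 and 2.10 and -1.52, -1.36, -1.46 and -1.65 at 24 h. It was called lower at 6 h (-1.01 ± 0.13) and further at 24 h (-3.38 ± 0.13), a difference of -2.37 ± 0.18. H2ac6 (2.32; well above background on 2, 0, 2 and 4 of 4 arrays of the groups in time order, normoxia first), H2bc8 (1.26), H2bc14 (0.87) and H2bc4 (0.82) rose. Cenpa, the centromere variant (-1.42), and H4c4 (-1.21) were among the falls. Copies of a histone type are near identical, so a probe may see more than 1 of them.

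Clock output and immediate-early genes rose in part. Dbp, an output gene of the circadian clock, was at -0.44, -0.42, -0.46 and -0.64 and -0.35, -0.26, -0.61 and -0.80 at 6 h in normoxia and hyperoxia, and at 0.58, 0.05, 0.45 and 0.60 and 1.94, 1.599, 2.06 and 2.03 at 24 h. The 6 h groups overlapped and the 24 h groups did not, and the difference was 1.503 ± 0.20 (adjusted p 0.000227). Nr1d1 (0.76 ± 0.23) and Tef (0.50 ± 0.14) were the other 2 of 18 clock genes that were higher, with 0 lower; the call of Nr1d1 was lost in 6 of 11 other settings and 14 of 16 fits without 1 array, and that of Tef in 2 and 8. The count of clock genes fell to 1 in 7 of those 16 fits. Of 30 immediate-early genes 5 were higher and 0 lower: the phosphatase Dusp1, Egr1 (0.97), Ier3 (0.91), Btg2 (0.85) and Zfp36 (0.48); without hyperoxia 6 h replicate 3 the count was 8. Dusp1 was at 1.85, 2.07, 2.45 and 2.21 and 2.23, 2.20, 2.93 and 2.02 at 6 h, and at 1.61, 1.398, 1.22 and 1.37 and 2.82, 2.80, 3.05 and 2.91 at 24 h. The 6 h groups overlapped and the 24 h groups did not. Its level fell with time in normoxia (-0.75) and rose in hyperoxia (0.55), a difference of 1.29 ± 0.24 (adjusted p 0.00282). Btg2 is also a p53 target and is counted on that list too. On the clock list and on the immediate-early list 16.7% of members were higher, against 6.63% over all genes.

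Ribosome biogenesis genes were lower for 9 of 28 and higher for 1 (Polr1c, 0.24), with a median of -0.25. The shares were 32.1% lower and 3.57% higher, against 5.63% and 6.63% over all genes. The pre-rRNA processing gene Pes1 (-0.80 ± 0.13) and the pseudouridine synthase Dkc1 (-0.79 ± 0.08) fell most; without hyperoxia 6 h replicate 3 the lower count was 14. Of 22 cytosolic heat shock genes 3 were higher, the inducible Hspa1a (1.31 ± 0.14), Hspa4l (0.69) and Dnajb4 (0.69), and 2 lower, Hspd1 (-0.42; lost in 5 fits that left out 1 array) and Ahsa1 (-0.24). These shares, 13.6% and 9.09%, stand beside 6.63% and 5.63% over all genes, and the lower count ran from 0 to 4 over the alternatives.

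In the other groups few members were called, where 6.63% of all genes were higher and 5.63% lower, and several of these counts moved with the arrays used. Of 27 inflammatory and NF-kB genes 1 was higher, the prostaglandin synthase Ptgs2 (0.82 ± 0.17), and 1 lower, the siderophore binder Lcn2 (-1.32 ± 0.28). Of 32 interferon-stimulated genes 3 were higher, Ifit3 (1.06), Rtp4 (0.81) and Irf9 (0.50), and 0 lower; the calls of Rtp4 and Irf9 were lost in 8 and 7 of 16 fits without 1 array, and the count was 1 without hyperoxia 6 h replicate 2, hyperoxia 24 h replicate 3 or hyperoxia 24 h replicate 4. Epithelial junctions (Cldn3 of 22, 1.22), TGF-beta targets (Id1 of 20, 0.63) and autophagy and lysosome genes (Atp6v1a of 31, 0.60) each had 1 member higher and 0 lower. Ion and fluid transport had 1 of 19 lower, the water channel Aqp1 (-1.09). By limma, 0 of 32 extracellular matrix genes and 0 of 30 respiratory chain subunits were called, with 4 and 3 at an unadjusted p under 0.05. Without hyperoxia 6 h replicate 3, 4 respiratory chain, 4 TGF-beta and 5 autophagy and lysosome genes were higher. By the same test calls were made for 0 of 8 ciliated, 0 of 9 endothelial, 0 of 7 neutrophil and 0 of 9 lymphocyte markers, with 2, 1, 1 and 0 at that level.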

How the data were processed

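Each sample is one array of total RNA, labelled with Cy3 and scanned; per the file headers the deposited values are Agilent processed signal intensity per spot, and the submitters' processing notes name Agilent Feature Extraction 10.7.3.1. A deposited table of the authors' log2 values served as an alternative, and how it was normalized is not given in the sources used here. Its counts in the difference, 1801 higher and 1457 lower, were close to the 1802 and 1461 with quantile normalization. These alternatives may therefore not be separate checks. Control spots were left out and spots of a probe averaged. The log2 of the processed signal, less the 75th percentile of each array, was compared over the probe chosen for each gene with limma 3.58.1 in R 4.3.3, with 4 groups in one fit, no covariate, and Benjamini-Hochberg adjustment over 25401 genes. The fit had 12 residual degrees of freedom. A probe had to exceed background clearly, by the scanner software's own flag, in some group on 3 or more of its 4 arrays. Of 55681 probes, 27428 were named by accession, 3483 by symbol and 507 by older symbol through RefSeq, and 24263 kept the name in the file.

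Tested on simulated data with 50 changed genes per size among 25401, the fit for the difference recovered 26%, 74%, 88% and 92% of changes of 0.5, 1, 1.5 and 2 on the log2 scale, with 4 false calls. The simulated noise was independent between genes and arrays, and far fewer genes were changed than the 12.3% called in the data. Recovery and false calls in the data may therefore differ. The number of arrays limits the precision.

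Named genes have a RefSeq symbol and a called difference: the 12 largest rises and falls measured in every group, the 4 largest of each outside that, the 10 smallest adjusted p, up to 6 called at 6 h with a smaller and 6 with a larger effect at 24 h, and for each list with at least 3 called members up to 4 of these, with all members outside the call where 5 or fewer. For type II and p53 targets the 2 brightest members not called were added. Some genes that the rule names are not reported here. Genes beyond this rule were chosen after their values were seen, and the gene lists and the comparison itself were chosen with earlier results of these data known. Alternatives were quantile, median and normexp processing (the last from raw mean and background intensity in the deposited files), the authors' table, other filters and probe rules, a variance trend, array weights, replicate blocks and leaving out each array. Promoter windows and their sequences are from RefSeq (GRCm38.p6).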

Additional observations from a re-analysis of the deposited data

Results flagged for a closer look

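In 92 groups of 4 arrays, one for each of 4 groups of the genes given array by array, 4 had an array far from the 3 others; chance alone gives about 1 in 20. For Pidd1 at hyperoxia 6 h, replicate 3 was at 1.97 against 1.54 to 1.55 (gap over range 0.9929). For Gsta3 at hyperoxia 24 h, replicate 4 was at 3.68 against 4.82 to 5.05 (gap over range 0.8292). For Derl3 at hyperoxia 24 h, replicate 2 was at -4.43 against -4.84 to -4.78 (gap over range 0.835). For Aspm at hyperoxia 24 h, replicate 1 was at -2.55 against -2.89 to -2.85 (gap over range 0.8886).

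The effects at the 2 times differed by the test of the difference itself for 1683 genes in the higher and 1430 in the lower direction. Among genes with a RefSeq symbol that were called at 6 h and had a smaller effect at 24 h, the difference was -2.15 for Kbtbd12, 3.27 for Ms4a20 and -0.86 for Pdk1.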

How the results depend on the processing

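For 129 called genes the call was followed over 11 other settings of the processing and 16 fits without 1 array each. None of the 129 changed direction, and 115 kept their call throughout. Sizes could move while a call held, as for H2ac6, whose difference ran from 0.73 to 2.69. Folds and rankings by size are those of the main fit. Other called genes given above, such as Fas, Pmaip1, Bax, Phgdh, Shmt2 and Xbp1, were not followed in this way. Of the genes followed that were not called, the estimates of Cdkn2b, Ddit3, Sftpc and Gins3 lay on both sides of 0. The 14 of the 129 that lost their call somewhere were Cdkn1a, Dram1, Herpud1, Hspd1, Hyou1, Irf9, Msrb1, Muc1, Nr1d1, Pdia4, Rtp4, Sftpb, Tef and Trib3. With array quality weights 3136 genes were higher and 2602 lower in the difference, and 303 and 263 at 6 h. The lower count at 6 h, 23, was 39 with quantile normalization, 37 with normexp, 37 with the authors' deposited table and 35 with a variance trend. Leaving out 1 array at a time gave 1293 to 2707 higher and 1159 to 2262 lower in the difference, 33 to 132 and 11 to 61 at 6 h, and 3306 to 4415 and 2726 to 3742 at 24 h. The upper ends for the difference and for 6 h came without hyperoxia 6 h replicate 3; that fit shared 98.1% of the 3113 calls. The cause was not tested.

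Arrays with the same replicate number had residual correlations between 0.09 and 0.35 within 6 h, between 0.24 and 0.34 within 24 h and between -0.01 and 0.10 across times, so the numbers were not taken as pairs over all groups; within 24 h every pair was over 0.1, and within 6 h 3 of 4 were. With the replicate block over both slides 1802 genes were higher and 1512 lower, and with the replicate block within slide 2380 and 1803. The slide could not be a block, since each held 1 time. Counts of list members moved too. With the replicate block within slide, 8 inflammatory, 8 xenobiotic, 4 type I, 4 HIF, 4 junction and 4 autophagy genes were higher and 5 ion transport genes lower. Without hyperoxia 6 h replicate 3, 8 immediate-early, 8 histone, 5 autophagy, 4 TGF-beta and 4 respiratory chain genes were higher and 17 cholesterol, 14 ribosome biogenesis and 4 heat shock genes lower. With array quality weights, 10 immediate-early, 9 histone, 6 autophagy, 5 TGF-beta, 5 interferon, 4 junction, 4 HIF and 4 respiratory chain genes were higher and 17, 14 and 4 of the last 3 groups lower. Histones were higher for 8 with quantile normalization and with the authors' deposited table, and interferon genes for 5 with the replicate block over both slides. Dim probes limit what can be measured: 53.6% to 69.0% of probes per array were well above background.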
